A study of Spinacia oleracea with 24 samples.

Results

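The 60 most abundant transcripts of the spinach leaf that carry no Swiss-Prot protein name in the deposited gene table are described here. Many of the top ranks went to lectin genes of a single scaffold, below Spo06839 at rank 1. The 60 were chosen by ranking the 7909 genes without a Swiss-Prot name by their mean FPKM over all 24 libraries and taking the top 60, out of 25494 genes in the table (17585 with a name). FPKM is fragments per kilobase of gene length, here scaled by a size factor of each library and not by its number of assigned fragments. The mean level chose the genes, so the levels below are a description and were not tested, and a gene with a high peak gains on a linear mean. The threshold fell in a dense part of the ranking. The last 3 genes inside it were Spo28404, Spo14087 and Spo21045 with mean FPKM of 209.4, 209.2 and 209.2, and the first 3 outside it were Spo12819, Spo00490 and Spo02517 with 208.9, 207.2 and 204.6.

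The libraries come from leaves of spinach (Spinacia oleracea) cultivar Space, grown at 8 h of light per day and harvested at 48 days of age. Plants received high nitrogen (HN, 200 ppm) or low nitrogen (LN, 50 ppm). Leaves of both nitrogen levels were taken as the night closed (T1, end of dark), halfway through the light (T2, middle of light), as the light period closed (T3, end of light) and halfway through the night (T4, middle of dark), with 3 plants in each of the 8 groups. All groups share the cultivar, the soil-free medium and the day length, and HN serves as the comparison group. The title of the series places the work on daily regulation of the leaf transcriptome under different nitrogen supply.

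The name "without Swiss-Prot name" says only that no protein of that curated database was assigned. Of the 60 genes, 42 had no text in any part of their description and 18 carried a Pfam domain. The domains were jacalin-like lectin (10 genes), glycine rich protein family (2), PsbX of photosystem II (1), TSP9 (1), universal stress protein (1), RETICULATA-related (1), a domain of unknown function, DUF760 (1), and a proline-rich nuclear receptor coactivator motif (1). Jacalin-related lectins are carbohydrate-binding proteins of a beta-prism fold, and plants keep them as vegetative storage and defence proteins. PsbX is a small membrane subunit of photosystem II, and TSP9 is a thylakoid phosphoprotein, first described in spinach, that associates with the light-harvesting antenna. Universal stress proteins were named from Escherichia coli, and glycine rich proteins of plants are often found in the cell wall.

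Transcripts without a name took ranks 1 to 4 of the whole table and 7 of its first 10 places. They took 14 of its first 50 and 20 of its first 100, and the lowest of the 60 ranked 430. Genes without a name make up 31.0% of the table (7909 of 25494). Together the 60 genes held a median of 8.82% of the assigned fragments of a library (3.85% to 12.2%), and the 10 genes with a jacalin-like domain held a median of 4.58% (1.01% to 6.70%). On the FPKM scale, which is per length, the 60 held a median of 19.6% of the library sum. The genes were short, with a median length of 569.5 bases (234 to 2848) beside 795 bases for the 60 most abundant genes with a Swiss-Prot name. In 17 of the 60 (28.3%) the gene model was a single block, beside 16 of the 60 most abundant genes with a name (26.7%) and 16.8% of all genes without one. On named chromosomes lay 33 of them and on unplaced scaffolds 27.

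The libraries held 18369094 to 25252705 assigned fragments (median 21143797). All 60 genes were above 0 in every library and all 60 passed the filter for testing, which 18110 genes passed in all. The leaf label was compared with marker genes. The summed FPKM of 38 mesophyll genes (Rubisco small subunit, antenna, Rubisco activase, carbonic anhydrase; 2 of them at 0) lay between 15937 and 115239 in the libraries, against 181 to 428 for 11 phloem genes, 7.70 to 29.3 for 3 guard cell genes, 1.40 to 15.1 for 6 root genes and 5.18 to 19.2 for 14 seed storage genes, of which 5 were at 0. Of the 11 phloem genes 7 had a mean of at least 1 FPKM. The highest was Spo23573, a sucrose transport protein (mean 154), and the sieve element occlusion genes had means of 0.09 to 2.43. In whole leaves, fewer cells of a type and less RNA per cell cannot be told apart. Differences below are log2 changes on the log2(FPKM + 1) scale with their standard error (SE). Adjusted p-values are those of limma with Benjamini-Hochberg correction over all tested genes, and a call is an adjusted p under 0.05.

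The most abundant transcript of the table, Spo06839, has a gene model of 252 bases in 1 block (SpoScf_03269:21109-21360, minus strand) and no domain. Its FPKM in HN was 18410, 20639 and 26650 at T1, 22778, 23937 and 29789 at T2, 34608, 38934 and 19760 at T3, and 19891, 18981 and 16722 at T4. In LN it was 28376, 17352 and 32927 at T1, 32707, 33455 and 35511 at T2, 22461, 31982 and 46240 at T3, and 14268, 20266 and 36820 at T4. The lowest and the highest library differed 3.24-fold, all 3 LN libraries at T2 stood above the 3 HN libraries, and the groups overlapped at the other times. It passed no test, with a change of 0.25 (SE 0.23, adjusted p = 0.48) between LN and HN over the day.

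Across the 60 genes the ratio of the highest to the lowest library ran from 1.49 in Spo21496 to 1152 in Spo08553, with a median of 8.95. Spo08553, a model of 252 bases with no domain, had 4 fragments in replicate 3 of LN at T3, and 509 to 6363 fragments in the other 23. The spread between plants of a group was wide, with a median within-group SD of 0.59 on the log2 scale for the 60 genes, 0.74 for the 10 lectin genes and 0.43 for the 60 most abundant genes with a name, beside 0.31 for all tested genes.

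**Figure D1:**
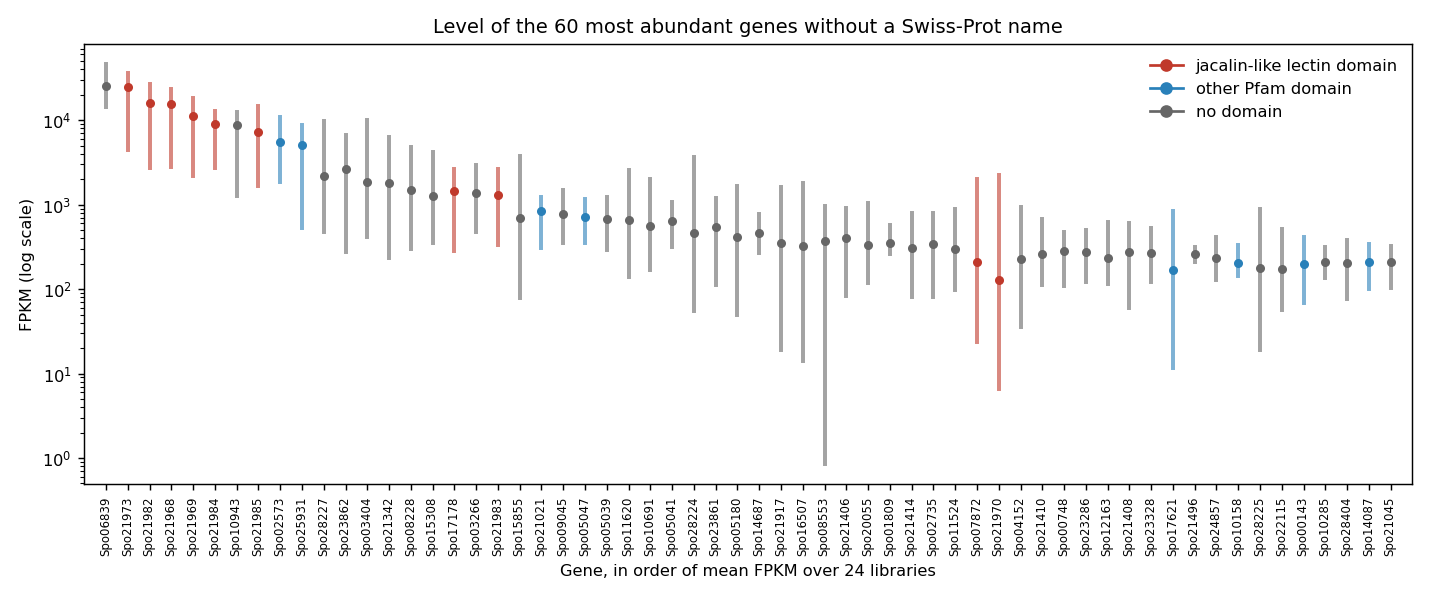
FPKM (log axis) of each of the 60 genes in order of mean level; the point is the median and the bar runs from the lowest to the highest of the 24 libraries, coloured by domain. Lectin genes take most of the places at the left, and the bar of Spo08553 reaches down to 0.85 FPKM.

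Of the 10 lectin genes, 8 lie within 248251 bases of a single scaffold (SpoScf_00297:207638-455888). In this interval the table lists only 2 other genes, Spo21971 and Spo21986, with mean FPKM of 0.03 and 1.23. Along the scaffold come Spo21982, Spo21983, Spo21984 and Spo21985 on the minus strand, then Spo21968, Spo21969, Spo21970 and Spo21973 on the plus strand. Spo21982, Spo21968, Spo21969 and Spo21984 have gene models of 498 bases each, and Spo21985, Spo21970 and Spo21973 of 510 bases each. How reads shared by near-identical copies were counted was not given in the sources used here, so the split between neighbours is uncertain, and the summed FPKM is given beside the single genes.

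The summed level of the 8 genes was high at all times and fell off in some plants. In HN the sum was 106356, 89975 and 101033 at T1, and 116068, 90886 and 59728 at T2. At T3 it was 127114, 38014 and 37369, and at T4 56467, 16940 and 25980. All 3 HN libraries at T4 lay below all 6 of HN at T1 and T2, and 1 plant at T3 stood more than 3-fold above the others. In LN the sum was 80266, 103661 and 106641 at T1, and 58795, 58834 and 120845 at T2. At T3 it was 125892, 111911 and 41897, and at T4 105155, 90128 and 43381. The ranges of the LN times overlapped, and 1 LN plant at T4 lay within the HN range of that time.

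In most groups 1 plant stood highest or lowest for most or all of the 8 genes. Replicate 1 was the highest library for all 8 genes in HN at T3 and at T4, and replicate 3 for all 8 in LN at T2. One replicate was the lowest for all 8 genes in HN at T2 (replicate 3), HN at T4 (replicate 2), LN at T3 (replicate 3) and LN at T4 (replicate 3). The order was less uniform at T1, where the most frequent highest plant held 6 of the 8 genes in HN and 4 in LN, and the most frequent lowest held 5 and 6. In LN at T2 the most frequent lowest plant held 4. Spo21973 gave 28.6% of the sum on average (25.7% to 34.5%), Spo21982 18.4% (14.6% to 22.2%), Spo21968 17.4% (14.9% to 18.8%), Spo21969 12.8% (10.6% to 14.5%) and Spo21984 11.5% (8.29% to 16.2%). Spo21985 gave 9.25% (5.33% to 12.3%) and Spo21983 1.74% (0.91% to 2.68%). The ratio of the highest to the lowest share lay between 1.26 (Spo21968) and 2.96 (Spo21983) for these 7 genes. It was 114 for Spo21970, whose share ran from 0.0157% to 1.78%. Its FPKM was 2266, 46.3 and 45.8 in HN at T3, and 1891, 315 and 6.58 in LN at T3. Within each of these groups 1 plant stood far above the others.

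**Figure D2:**
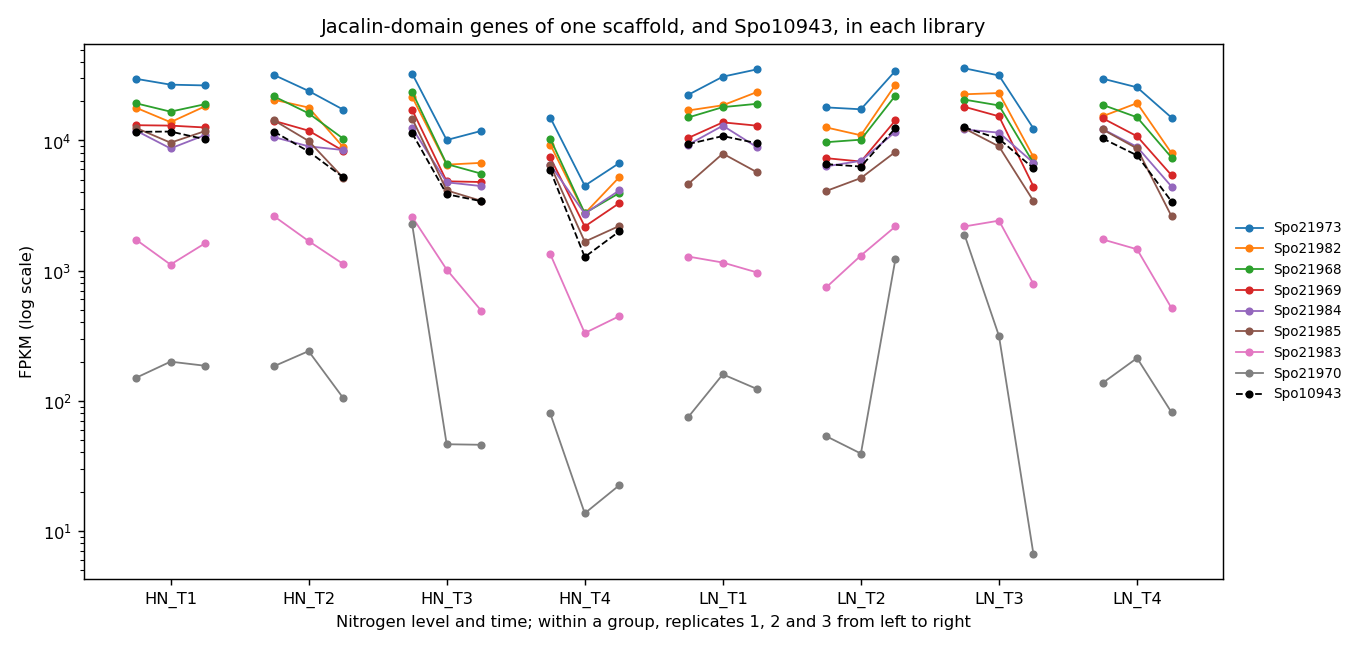
FPKM (log axis) of the 8 lectin genes of the scaffold and of Spo10943 in each library, by group; lines join the 3 libraries of a group only to show a gene. Within HN at T4 all 8 genes are lowest in replicate 2, and Spo21970 swings from 6.58 to 2266 FPKM.

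The remaining lectin genes lie elsewhere. Spo17178 (chr4:93398130-93400204) sits among 4 other jacalin-domain genes of chromosome 4 and had a median of 1209 FPKM in HN (283 to 2589) and 1533 in LN (973 to 2617). Spo07872 (SpoScf_00521:215535-217831) reached 2009 FPKM in 1 HN plant at T3 while the other plants of the group had 157 and 149. The table holds 29 genes with the domain, 19 of them without a Swiss-Prot name.

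The averaged nitrogen effect passed for 0 of the 10 lectin genes in limma (16.5% of all tested genes), with unadjusted p under 0.05 for 1, and log2 changes between -0.05 (Spo07872) and 0.74 (Spo17178, SE 0.28, adjusted p = 0.0756). In the middle of dark the estimate was above 0 in LN for 10 of 10 genes, beside 8976 of all 18110 tested genes. The median of the 10 was 1.40, beside -0.00384 for all tested genes. In limma 0 of the 10 passed (0.37% of all tested genes), 5 having an unadjusted p under 0.05. The 10 are not separate results, since 8 lie on 1 scaffold, may share reads and were measured in the same plants. At this time the summed phloem markers were at 181 to 206 FPKM in HN and 226 to 323 in LN, without overlap, and the mesophyll markers at 45542 to 60455 in HN and 15937 to 48616 in LN. Their part in the result was not tested. In HN at T4 replicate 1 was highest and replicate 2 lowest for all 8 genes of the scaffold, and in LN at T4 replicate 3 was lowest for all 8. In HN the level was higher in the middle of light than in the middle of dark by a median of 1.56, and 1 of the 10 passed (12.5% of all tested genes), Spo21973 (1.62, SE 0.56, adjusted p = 0.0428). The call of Spo21973 was lost in 11 of 32 alternatives, and its adjusted p lay between 0.02 and 0.302. The summed mesophyll markers also differed between these times, with 94109 to 112751 FPKM in the middle of light and 45542 to 60455 in the middle of dark in HN. The phloem markers did too, with 231 to 395 FPKM against 181 to 206, and the part of either list in the result was not tested. Of 59 photosystem and antenna genes with a name, 15 were higher in the middle of light in this contrast and 0 lower. The mesophyll sum, which holds antenna genes, therefore cannot separate the number of cells from the time of day.

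Spo10943, a model of 1073 bases without a domain on another scaffold (SpoScf_03078:3245-5442), followed the lectin sum. It stood at 7.51% to 14.6% of that sum and put the 3 plants in the same order in 5 of 8 groups. Its FPKM in HN was 11681, 8232 and 5223 at T2, and 5913, 1273 and 2000 at T4, so that the ranges overlapped between 5223 and 5913. It changed over the 4 times in HN (adjusted p = 0.0204) and was higher in the middle of light than in the middle of dark there (1.69, SE 0.56, adjusted p = 0.0345), a call lost without replicate 2 of HN at T4 (adjusted p = 0.176).

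Averaged over the 4 times, nitrogen supply changed 19 of the 60 genes (31.7%), beside 16.5% of all tested genes and 31.7% of the 60 most abundant genes with a name. In LN 11 of the 60 genes were higher, beside 7.92% of all tested genes, and 8 were lower, beside 8.62%. The same number, 19 of 60, passed among the 60 most abundant genes with a name, but there 4 were higher and 15 lower. None of the 19 carried a jacalin-like domain. The 8 lower genes became 5 without replicate 3 of LN at T4. Without the 3 libraries farthest from their groups (replicate 2 of LN at T1, replicate 3 of LN at T3 and replicate 3 of LN at T4), 11 genes were higher and 9 lower. At single times the counts were small. At the end of dark 1 gene was higher (5.1% of all genes) and 3 were lower (4.86%), and in the middle of dark 2 were higher (0.133%) and 0 lower (0.237%). At T2 and T3 limma called 0 of the 60, as it called at most 1 gene of the whole table in each direction (0.00552% or 0%), with 3 and 11 of the 60 at an unadjusted p under 0.05, and voom on the recovered fragments also called 0. The genes lower at the end of dark were Spo23328, described below, Spo24857 (-0.64, SE 0.19, adjusted p = 0.0389) and Spo21045 (-0.79, SE 0.20, adjusted p = 0.0171). None of the 3 passed without replicate 3 of LN at T1, and a common sum of FPKM gave 2 higher and 2 lower at this time. With same-numbered plants of these groups paired as a replicate block, 4 genes were higher and 3 lower.

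Spo03404, Spo21342 and Spo08228 had the largest rises at low nitrogen. Spo03404, a model of 252 bases with no domain (SpoScf_00442:192391-192642), had a median of 949 FPKM in HN (478 to 4986) and 3696 in LN (414 to 10026), and the mean was higher in LN at 4 of 4 times (1.35, SE 0.38, adjusted p = 0.0225). Spo21342 (SpoScf_00928:235384-237118) had 1166 FPKM in HN (231 to 3416) and 2251 in LN (991 to 6285), a change of 1.21 (SE 0.31, adjusted p = 0.0145). Spo08228 (chr4:86750400-86751481) had 912 FPKM in HN (297 to 2422) and 2198 in LN (916 to 4760), a change of 1.19 (SE 0.29, adjusted p = 0.0112). The HN and LN ranges over the day overlapped for all 3 genes. At the end of dark and in the middle of dark the 3 LN plants stood above the 3 HN plants for Spo08228, and in the middle of dark for Spo21342.

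Spo10691 (chr1:41859828-41862839, no domain) rose at low nitrogen and fell from T1 to T3 at both levels. Its FPKM in HN was 833, 811 and 784 at T1 and 410, 170 and 249 at T4, and in LN it was 993, 1261 and 2036 at T1 and 878, 577 and 911 at T4. At both times every LN plant was above every HN plant. The averaged change was 0.83 (SE 0.17, adjusted p = 0.00363), and from T1 to T3 it was -1.13 in HN (SE 0.33, adjusted p = 0.013) and -1.41 in LN (SE 0.33, adjusted p = 0.0038). Its call in the middle of dark alone (1.57, SE 0.33, adjusted p = 0.0438) was lost without replicate 3 of LN at T4 (adjusted p = 0.259). The other genes that rose were Spo03266 (0.71), Spo12163 (0.55), and the neighbours described below. The call of Spo03266 was lost in 15 of 31 alternatives.

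A pair of genes without a domain dropped most at low nitrogen, with a wide spread. Spo21917 (SpoScf_00709:72272-72787) had a median of 520 FPKM in HN (239 to 1607) and 202 in LN (18.9 to 439), a change of -2.03 (SE 0.55, adjusted p = 0.0184). Its mean was lower in LN at 4 of 4 times, and at T3 and T4 the LN and HN plants did not overlap. Spo16507 (SpoScf_00982:22884-24656) had 511 FPKM in HN (101 to 1822) and 134 in LN (14.2 to 792), and its change of -1.70 (SE 0.58, adjusted p = 0.0493) was lost in 23 of 31 alternatives.

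Spo23328 had the smallest adjusted p of the averaged nitrogen test among the 60. It is a model of 291 bases with no domain (chr6:43258865-43259155). Its FPKM in HN was 436, 417 and 531 at T1, 321, 260 and 323 at T2, 250, 271 and 259 at T3, and 400, 293 and 323 at T4. In LN it was 133, 288 and 147 at T1, 171, 143 and 168 at T2, 133, 122 and 174 at T3, and 338, 311 and 128 at T4. The groups did not overlap at T1, T2 and T3, and at T4 they did. The averaged change was -0.91 (SE 0.15, adjusted p = 0.00126), and the change at the end of dark was -1.36 (SE 0.30, adjusted p = 0.00922).

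The other genes that were lower in LN moved little or had a wide spread. Spo10158, with a RETICULATA-related domain (chr3:88801839-88813422), a family named from Arabidopsis mutants with a net-like leaf pattern, had a change of -0.37 (SE 0.10, adjusted p = 0.0176). Spo14087, with the domain DUF760 (chr4:80990636-80997047), had -0.33 (SE 0.09, adjusted p = 0.0162). Spo21045 had -0.34 (SE 0.10, adjusted p = 0.0263), Spo24857 had -0.30 (SE 0.09, adjusted p = 0.0363) and Spo22115 had -0.81 (SE 0.22, adjusted p = 0.0183). All 5 had a lower mean in LN at 4 of 4 times. The call of Spo24857 was lost in 16 of 31 alternatives, and that of Spo21045 without replicate 3 of LN at T4 (adjusted p = 0.0523).

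**Figure D3:**
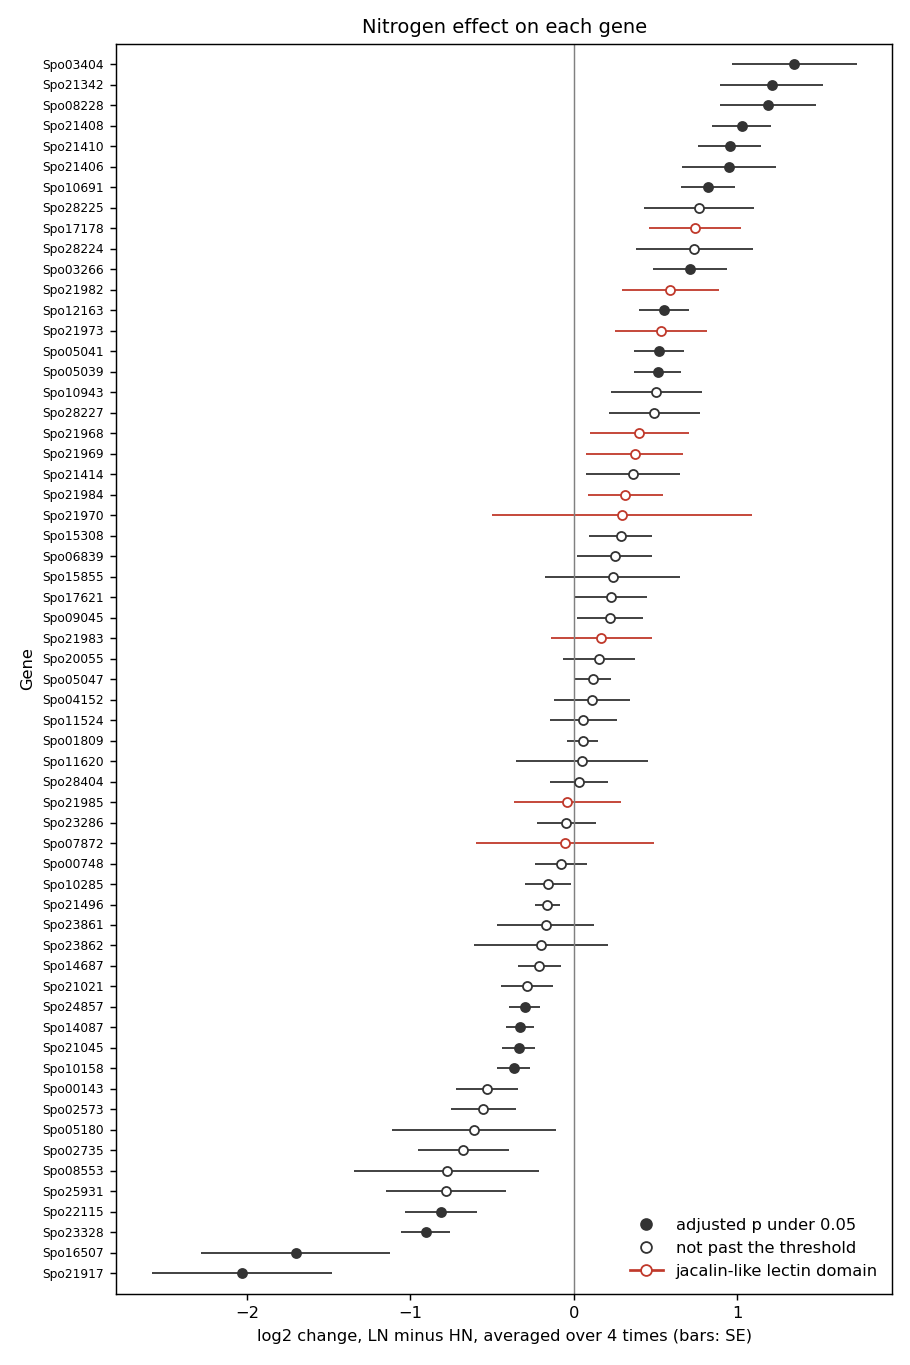
Log2 change from HN to LN averaged over the 4 times for each of the 60 genes, with the SE as a bar; filled points have an adjusted p under 0.05 and red points are lectin genes. The changes run from -2.03 (Spo21917) to 1.35 (Spo03404), and all 10 lectin points are open.

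A run of neighbouring genes on chromosome 6 held several that were higher in LN. Spo21414, Spo21410, Spo21408 and Spo21406 lie within 48491 bases (chr6:39023586-39072076), all on the plus strand, in an interval of 9 genes of which 0 carry a Swiss-Prot name or a domain. All 9 had an estimate above 0 for LN minus HN and 5 passed, which reads beside the 7.92% given above. Spo21408 had a median of 180 FPKM in HN (59.5 to 364) and 348 in LN (246 to 609), a change of 1.03 (SE 0.18, adjusted p = 0.00174). At T1, T3 and T4 each of its LN plants was above each HN plant, and in the middle of dark alone its change was 1.90 (SE 0.36, adjusted p = 0.0275). This last call was lost without replicate 3 of LN at T4 (adjusted p = 0.254).

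Spo21410 had a median of 197 FPKM in HN (112 to 315) and 379 in LN (209 to 676), a change of 0.95 (SE 0.19, adjusted p = 0.00384), again with no overlap at T1, T3 and T4. Spo21406 had 243 FPKM in HN (82.1 to 644) and 477 in LN (203 to 912), and its change of 0.95 (SE 0.29, adjusted p = 0.0312) was lost in 11 of 31 alternatives. Spo21414 had 210 FPKM in HN (80.2 to 786) and 344.5 in LN (181 to 772), a change of 0.36 (SE 0.29, adjusted p = 0.408). Between them lie genes too low to rank among the 60. Spo21411 had 33.2 FPKM in HN (6.18 to 112) and 121 in LN (36.1 to 596), a change of 1.95 (SE 0.38, adjusted p = 0.00323), and Spo21412 changed by 1.06 (SE 0.20, adjusted p = 0.00285). Spo21413, Spo21409 and Spo21407 had estimates of 0.33, 0.51 and 0.24 and did not pass. Whether these genes share sequence was not tested.

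**Figure D4:**
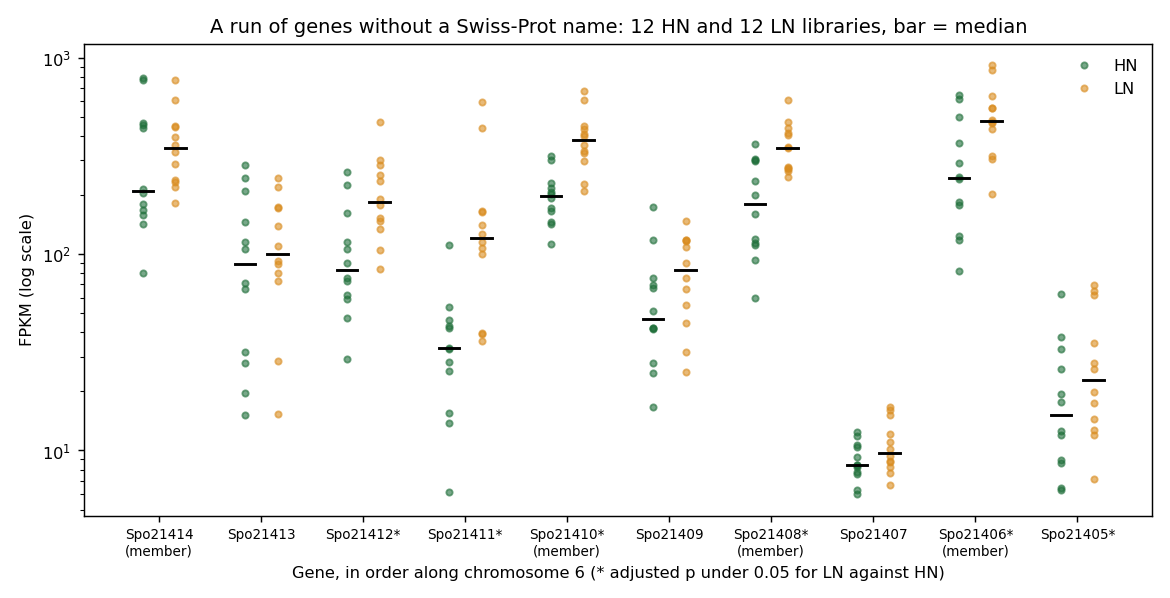
FPKM (log axis) of the 9 genes of the chromosome 6 run, and of the next gene Spo21405, in 12 HN and 12 LN libraries, with the median as a bar; an asterisk marks an adjusted p under 0.05 for the averaged nitrogen effect. The LN median is above the HN median for every gene drawn, and the offset is widest for Spo21411.

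A further pair of neighbours that were both higher in LN lies on the scaffold SpoScf_01926:47577-51363, where Spo05039 (324 bases) and Spo05041 (357 bases) stand with Spo05040 between them. Spo05039 had 527 FPKM in HN (292 to 1102) and 731 in LN (517 to 1228), a change of 0.51 (SE 0.14, adjusted p = 0.0206). Spo05041 had 491 FPKM in HN (313 to 887) and 758 in LN (537 to 1067), a change of 0.52 (SE 0.15, adjusted p = 0.0265), lost in 5 of 31 alternatives. Their ratio lay between 0.72 and 1.64 in the 24 libraries. Spo05040 had 0.30 and did not pass (adjusted p = 0.314), and Spo05038, the next gene on the left, passed at 0.64 (SE 0.09, adjusted p = 0.000543). Spo05039 was also higher in the middle of light than in the middle of dark in HN, with 1102, 781 and 560 FPKM against 417, 292 and 314 (1.22, SE 0.29, adjusted p = 0.00488).

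Over the day, 18 of the 60 genes changed in HN, beside 38.9% of all tested genes, and 14 in LN, beside 28.7%. Among the 60 most abundant genes with a name 17 changed in HN (28.3%) and 21 in LN (35%). When those same 3 outlying libraries were dropped, the HN count was 31 (51.7%), beside 46.5% of all tested genes, and the LN count 15, beside 30%, and the LN count was 9 without replicate 3 of LN at T1. The 3 outlying libraries are all of LN, so no HN value changed. The HN count moved through the estimate of the spread, which the 8 groups share in the fit. In 7 genes the test passed at both levels, and 5 of the 7 had their highest mean at the same time in HN and LN. The nitrogen effect differed between times for 0 of the 60 genes in limma (0.0828% of all tested genes), with an unadjusted p under 0.05 for 8, and for 0 in voom. Without the 3 outlying libraries 2 of the 60 passed this test. From T1 to T3 5 genes rose in HN (15.7% of all genes) and 6 fell (17.1%), and in LN 4 rose (12.2%) and 7 fell (13.8%). With each library scaled to a common sum of FPKM, 7 rose and 5 fell in HN. Through the same shared spread, the 5 rising genes in HN became 9 without replicate 3 of LN at T4. The 7 falling genes in LN became 4 without replicate 2 of LN at T1. The 7 genes that passed this comparison at both levels had the same sign in each. The same count over all tested genes was not made, here or for the 5 of 7 above. Neither is shown to be particular to the 60 genes.

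The universal stress protein gene Spo17621 (chr5:1011685-1013779) had the largest course. Its FPKM in HN was 12.2, 34.3 and 11.5 at T1, 85.4, 80.9 and 171 at T2, 845, 646 and 576 at T3, and 144, 176 and 113 at T4. In LN it was 20.02, 12.1 and 17.8 at T1, 57.4, 164 and 179 at T2, 603, 832 and 676 at T3, and 199, 170 and 429 at T4. The end of light stood above every plant of the other times at both levels. From T1 to T3 it rose by 5.24 in HN (SE 0.44, adjusted p = 7.86e-08) and 5.33 in LN (SE 0.44, adjusted p = 6.66e-08).

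Spo15855 and Spo04152, neither with a domain, rose over the same interval. Spo15855 (SpoScf_01584:83800-84585) had 166, 118 and 238 FPKM at T1 and 2279, 3105 and 693 at T3 in HN, a change of 3.34 (SE 0.82, adjusted p = 0.00424). In LN its change was 2.87 (SE 0.82, adjusted p = 0.0147), which was lost without replicate 2 of LN at T1 (adjusted p = 0.112). Spo04152 (SpoScf_01323:172657-175626) had 79.5, 75.3 and 98.5 FPKM at T1, 398, 412 and 603 at T2, 733, 593 and 240 at T3, and 110, 110 and 97.98 at T4 in HN. Both times in the light were above both times in the dark for all plants. Its change from T1 to T3 was 2.48 in HN (SE 0.47, adjusted p = 0.000518) and 2.79 in LN (SE 0.47, adjusted p = 0.000232).

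Spo15308 fell from the end of dark onwards. This model of 276 bases (chr3:48380503-48381069) had 4254, 2557 and 3980 FPKM at T1, 2157, 2822 and 952 at T2, 941, 560 and 653 at T3, and 532, 354 and 439 at T4 in HN. The change from T1 to T3 was -2.32 in HN (SE 0.39, adjusted p = 0.000164) and -1.81 in LN (SE 0.39, adjusted p = 0.00197). It ends 24 bases before the start of Spo15307 (chr3:48381094-48382233), which lies on the same plus strand and is named S-adenosylmethionine decarboxylase proenzyme, an enzyme of polyamine synthesis whose plant mRNAs carry a small conserved reading frame in the 5′ leader. Spo15307 had the same course, with changes of -2.42 in HN (SE 0.38, adjusted p = 8.43e-05) and -1.92 in LN (SE 0.38, adjusted p = 0.000963). Their FPKM ratio lay between 1.27 and 1.58 in all 24 libraries, and 6 of 8 groups had the same order of plants. Whether the models belong to 1 transcript was not tested.

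Spo14087, the gene with DUF760, was lowest at the end of light. It had 291, 311 and 338 FPKM at T1 and 137, 188 and 152 at T3 in HN, and 245, 281 and 236 at T1 and 99.2, 133 and 122 at T3 in LN. The times did not overlap at either level, and the changes were -0.98 (SE 0.17, adjusted p = 0.000272) and -1.10 (SE 0.17, adjusted p = 0.000122). Spo24857 also fell, by 0.80 in HN (SE 0.19, adjusted p = 0.00323) and by 0.56 in LN (SE 0.19, adjusted p = 0.0337), the LN call being lost in 5 of 32 alternatives. Spo21045 went the other way in LN, with 105, 111 and 102 FPKM at T1 and 208, 272 and 254 at T3 (1.19, SE 0.20, adjusted p = 0.000205). In HN Spo21045 had 215, 192 and 151 at T1 and 269, 284 and 232 at T3, which did not overlap either, and it was not called there.

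**Figure D5:**
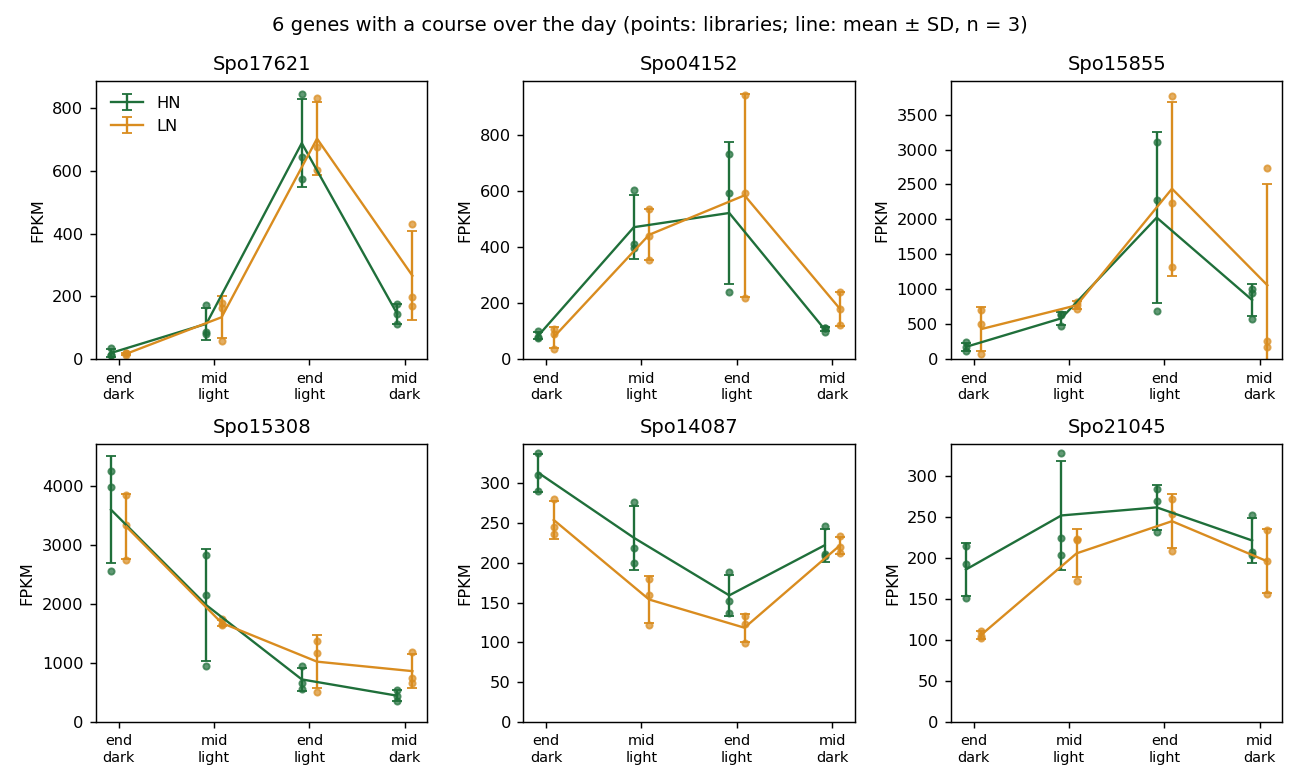
FPKM of 6 genes at the end of dark, middle of light, end of light and middle of dark in HN and LN; points are plants and the line joins means with their SD (n = 3). Spo17621 peaks at the end of light at both levels, Spo15308 declines from the end of dark, and Spo14087 is lowest at the end of light.

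Several calls belonged to 1 nitrogen level, without a test of the difference passing in the fit to all 24 libraries. In HN Spo20055 rose from T1 to T3, with 117, 236 and 163 FPKM at T1 and 672, 604 and 379 at T3 (1.69, SE 0.44, adjusted p = 0.00639). Spo20055 (chr4:92517378-92518019) lies 2 genes from Spo20053, named Abscisic stress-ripening protein 1, a small hydrophilic protein known from drought and ripening, which rose by 6.71 in HN (SE 0.32, adjusted p = 2.85e-11). Spo20054 between them carries a domain of the same ABA/WDS induced family and rose by 2.52 (SE 0.34, adjusted p = 1.86e-05). In LN Spo20055 had 270, 1038 and 254 FPKM at T1 and 784, 667 and 283 at T3, and it was not called. The 1038 came from replicate 2 of LN at T1, 1 of the 3 outlying libraries. The rises of Spo20053 and Spo20054 were not limited to HN. In LN Spo20053 had 9.10, 11.6 and 6.31 FPKM at T1 and 761, 1075 and 863 at T3. Spo20054 had 25.0, 73.9 and 23.7 FPKM at T1 and 115, 116 and 100 at T3 in LN. In HN Spo28404 fell by 1.13 (SE 0.36, adjusted p = 0.0198) and Spo23328 by 0.82 (SE 0.30, adjusted p = 0.0424). In LN Spo01809 fell by 0.66 (SE 0.19, adjusted p = 0.0135), and Spo05047, with the coactivator motif, fell by 0.69 (SE 0.22, adjusted p = 0.0245). Each of these 4 calls was lost in at least 4 alternatives. Spo08553 fell by 3.78 in LN (SE 1.13, adjusted p = 0.0187), and by 1.35 without replicate 3 of LN at T3, the library with 4 fragments.

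The unnamed genes Spo28224, Spo28227 and Spo28225 of chromosome 1 are the only genes of the table in their interval (chr1:5556175-5616922) and are 240, 237 and 400 bases long. All 3 changed over the day in HN (adjusted p = 0.0175, 0.0092 and 0.0247), with the highest mean at the end of light. Spo28227 had 1347, 2159 and 1268 FPKM at T1, 2145, 1856 and 2083 at T2, 6938, 6286 and 4239 at T3, and 2265, 477 and 1072 at T4 in HN. The end of light was above all other HN libraries, and the change from T1 was 1.88 (SE 0.56, adjusted p = 0.0136). In LN the highest mean of all 3 genes came in the middle of dark. Replicate 3 of LN at T4 stood above the others, with 9827 FPKM for Spo28227 against 3963 and 2353 in the other two plants, and 3675 for Spo28224 against 583 and 279. The same library had the lowest summed mesophyll markers of all, 15937 FPKM, and the part of this in the LN values was not tested.

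On chromosome 2, Spo23861 and Spo23862 (chr2:54200788-54210484) kept the same order of plants in 6 of 8 groups and passed no test. Spo23862 had 6763, 1728 and 1104 FPKM in HN at T3, a spread like that of the lectin sum in the same plants. Its change between nitrogen levels over the day was -0.20, and the ratio of Spo23862 to Spo23861 lay between 1.91 and 6.48.

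The middle of the dark period in HN stood out as low. The lowest of the 4 HN means fell at T4 in 39 of the 60 genes, beside 23.7% of all tested genes. Replicate 2 of HN at T4 was the lowest of all 24 libraries for 26 of the 60 (43.3%), beside 5.9% of all tested genes. Of these 26, 9 were lectin genes, which are not separate results. The same counts were not made for the 60 most abundant genes with a name. In HN 11 of the 60 were higher in the middle of light than in the middle of dark (12.5% of all genes) and 1 was lower, Spo24857 (11.1%). In LN 0 were higher in limma (4.32%), with 1 in voom, and 1 was lower, again Spo24857 (3.34%), with an unadjusted p under 0.05 in either direction for 12. The LN counts were 0 higher and 4 lower with a common sum of FPKM, and 3 higher and 4 lower without the 3 outlying libraries. The largest calls in HN were Spo21342 (2.58, SE 0.63, adjusted p = 0.00591), Spo04152 (2.12, SE 0.47, adjusted p = 0.00331), Spo15308 (2.04, SE 0.39, adjusted p = 0.00105), Spo08228 (1.69, SE 0.59, adjusted p = 0.042) and Spo10943. The others were Spo21973, Spo21408, Spo05039, Spo28404, Spo12163 and Spo05047. A higher level in the middle of light was not particular to these genes in HN. Among the 60 most abundant genes with a name, 14 were higher and 0 lower in HN (23.3% called), and 15 higher and 0 lower in LN (25%). Of 59 photosystem and antenna genes with a name, 15 were higher in HN and 22 in LN, with 0 lower at either level.

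The count of 11 depended on the plants and the scaling. Whether the share of all tested genes moved alike under these settings was not tested. It was 5 without replicate 2 of HN at T4, 7 without replicate 3, 23 without replicate 1, 6 without replicate 1 or replicate 2 of HN at T2, and 17 without replicate 3 of that group. With each library scaled to a common sum of FPKM, which moved the median of all tested genes by -0.34 in this contrast and by -0.22 in the same contrast in LN, 5 were higher and 4 lower in HN.

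Of the genes with a photosynthetic domain, Spo02573 (PsbX, chr3:5877585-5878700) had 4143, 2289 and 2733 FPKM at T1, 6327, 8418 and 6308 at T2, 3397, 5689 and 9649 at T3, and 3489, 4469 and 1830 at T4 in LN. The middle of light was above all plants of T1 and T4. It changed over the day in LN (adjusted p = 0.0397), a call lost in 15 of 32 alternatives, and its nitrogen change of -0.55 did not pass (SE 0.20, adjusted p = 0.063), with a lower mean in LN at 4 of 4 times. Spo21021 (TSP9, chr1:42053988-42055321) had a median of 934.5 FPKM in HN (563 to 1245) and 763 in LN (307 to 1120) and passed no test. Beside them, of 59 photosystem and antenna genes with a Swiss-Prot name, 1 was higher and 9 lower in LN over the day, and 24 changed over the day in LN and 13 in HN.

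The glycine rich genes were Spo25931 (chr6:40537928-40539267), with a median of 5716 FPKM in HN (4365 to 8806) and 4430 in LN (533 to 8543), and Spo00143 (chr1:5854250-5856497). Spo25931 had 8543, 7786 and 533 in LN at T4, where replicate 3 stood apart, and passed no test. Spo00143 had 87.4, 81.3 and 194 FPKM at T2 and 416, 141 and 286 at T4 in LN and changed over the day there (adjusted p = 0.033), a call lost in 9 of 32 alternatives. In LN the changes of Spo11524 (adjusted p = 0.00211), a model of 234 bases with 367, 881 and 740 FPKM at T1 and 97.7, 219 and 196 at T2, and of Spo12163 (adjusted p = 0.0234) also passed. Spo12163 was the single gene higher in LN at the end of dark, with 356, 575 and 617 FPKM against 165, 233 and 192 in HN (1.36, SE 0.31, adjusted p = 0.0106), a call lost without replicate 3 of LN at T1 (adjusted p = 0.0705).

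In all, 36 of the 60 genes passed at least 1 of the 12 comparisons, beside 60.1% of all tested genes, and 24 passed none. The 24 were Spo06839, the lectin genes other than Spo21973, Spo25931, Spo23861, Spo23862, Spo21021, Spo21414 and 9 genes with no domain, namely Spo09045, Spo11620, Spo05180, Spo14687, Spo02735, Spo00748, Spo23286, Spo21496 and Spo10285. Spo21496 varied least of the 60, from 212 to 316 FPKM over the 24 libraries. Of the 9 genes with no domain named here, Spo05180 varied most, from 49.8 to 1677 FPKM, with 1677, 336 and 190 in HN at T3. A transcription factor family is entered in the table for 5 of the 60 (Spo07872, Spo00748, Spo10285, Spo14087 and Spo21045), and how it was assigned was not given in the sources used here.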

How the data were processed

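Leaf mRNA was sequenced from 24 directional dUTP libraries, per the labels' protocols. Per the submitters' processing notes the tools were DESeq2 (version 1.20.0), HISAT2 and RSEM, whose roles are not stated. The reference is Sp75, per the series title. The deposited values are FPKM per gene, per the file headers, and positions and names come from the same deposited table. None of its IDs (0) matched the RefSeq gene table used here. FPKM times the gene length came in whole steps per library (100.0% of values within 0.01), from which fragments were recovered. These steps were inverse to the size factor of each library, with a largest deviation of 0.0078%. Fewer fragments give less precise values, and no step here separates reads of near-identical copies. The lowest chi-square per degree of freedom between replicates was 28.9, so none were duplicates.

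Genes with at least 1 FPKM in at least 3 libraries were tested (18110) on log2(FPKM + 1) with limma (version 3.58.1, R 4.3.3), a scale that understates changes of low genes. The fit had 8 group means, 16 residual degrees of freedom and a variance trend. The p-values measure the spread between plants and treat all plants as independent, and whether a replicate number follows 1 plant was not given in the sources used here. The members, lists and comparisons were chosen with earlier results of these data known, and the grouping by Pfam domain after seeing the table. All 60 genes may be named, with full values for the 10 most abundant, those within 100 kb of another member and, per comparison, the 5 largest passing changes in each direction (the 5 smallest adjusted p for tests over 4 times). Nearest neighbours may be named. Spo05038, Spo20053, Spo21411 and Spo21412 were named after their values were seen. The tests were tried on simulated fragments. The settings varied were the pseudocount (0.1), the filter (none, or a mean FPKM of 5 or more), the scaling (equal FPKM sums), the groups fitted (those compared), the call (a log2 change of 1 or more), the replicate number as a block, and the libraries (each left out). Same-numbered plants of HN and LN at T1 deviated together (mean correlation 0.232, all 3 over 0.1), the 1 such pair of 28, a hint from the data and not from the labels. Voom, a fit without the 3 libraries that lay farthest from their groups, and a replicate block in those 2 groups only, were added after seeing the data.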

Additional observations from a re-analysis of the deposited data

How the results depend on the processing

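Of 1905 values for single genes under the alternatives, 1711 stayed on the same side of the threshold with the same direction, 194 lost their call and 0 reversed. Counts of genes called among the 60 moved as follows. The share of all tested genes under such a setting is given only for changes over the day without the 3 outlying libraries. There it was 46.5% in HN and 30% in LN. Whether the other moves are particular to the 60 genes was not tested.

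Without a filter 1 gene was higher in LN in the middle of dark. With a mean FPKM of at least 5, 18 genes were higher in the middle of light than in the middle of dark in HN and 2 in LN. With a common sum of FPKM, 2 were higher in LN at the end of dark, the middle of light gave 5 higher and 4 lower in HN, and 4 lower in LN. With only the compared groups, 0 were higher and 1 lower in LN at the end of dark, 0 higher in LN in the middle of dark, 9 higher at the end of light in HN, 2 lower at the end of light in LN, and 6 changed over the day in LN.

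With a log2 change of at least 1, 1 gene was lower in LN at the end of dark, 4 were higher and 2 lower in LN over the day, 0 were lower in the middle of light in HN and 0 in LN, and 3 (HN) and 4 (LN) were lower at the end of light. This setting asks for a larger change. Without the 3 libraries farthest from their groups (replicate 3 of LN at T3 and at T4 and replicate 2 of LN at T1), 4 were higher and 5 lower in LN at the end of dark, 1 lower in the middle of light, 1 lower at the end of light and 0 higher in the middle of dark. The same setting gave 22 genes higher in the middle of light and 8 higher at the end of light in HN, 3 higher and 4 lower in the middle of light in LN, 31 changed over the day in HN, and 2 nitrogen effects that differed between times. Voom gave 1 higher in LN in the middle of dark, and 18 (HN) and 1 (LN) higher in the middle of light. Where only LN libraries were dropped, the HN values stayed the same and the HN counts moved through the spread shared by all groups. The cause of the other moves was not tested.

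With each library left out in turn, 8 to 12 genes were higher and 5 to 9 lower in LN over the day, the 5 without replicate 3 of LN at T4. At the end of dark 0 to 3 were higher and 0 to 4 lower in LN, and in the middle of dark 0 to 5 were higher. Over the day 13 to 24 genes changed in HN and 9 to 17 in LN, the 9 without replicate 3 of LN at T1. The middle of light gave 5 to 23 higher and 0 to 1 lower in HN, and 0 to 1 higher and 0 to 3 lower in LN. The end of light gave 4 to 9 higher in HN, the 9 without replicate 3 of LN at T4, and 4 to 7 lower in LN, the 4 without replicate 2 of LN at T1.

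Over the groups as a whole same-numbered plants did not deviate together, and HN and LN at T1 were the 1 pair of 28 in which all 3 correlations were over 0.1. With the replicate number as a block over all groups, 11 genes were higher and 8 lower in LN over the day, 1 higher and 3 lower in LN at the end of dark, 21 changed over the day in HN, 13 in LN, and 16 were higher in the middle of light in HN. With the block in the end-of-dark groups only, 4 were higher and 3 lower in LN at that time, and the 4 calls made without the block were kept.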
